A study of Mus musculus with 12 samples.

Results

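In mouse HoxB8 cells, 254 stretches of chromatin had an accessibility peak in every library with the receptor mutant CSF3R T618I and in no library with the empty vector. They were found by merging the peaks of all 12 libraries wherever 2 peaks shared at least 1 base, on chromosomes 1 to 19 and X, and by keeping the merged regions with a peak in all 6 T618I libraries and in none of the 6 Empty libraries. The 254 regions are 0.448% of the 56682 merged regions and 1.47% of the 17255 regions with a peak in all 6 T618I libraries. They are called opened regions here, which states only where peaks were listed: a site without a listed peak can still be accessible below the threshold of the peak caller. The regions were chosen by the presence and absence of peaks in these 12 lists, so their difference between T618I and Empty libraries is a description and was not tested.

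HoxB8 cells are bone marrow progenitors held immature by an estrogen-dependent form of the transcription factor Hoxb8, and they were grown in stem cell factor and estrogen. All 12 libraries were made by ATAC-seq, in which a transposase cuts and tags accessible DNA, 48 h after estrogen was taken away. The 4 groups of 3 libraries combined a guide with a vector: sgNT/Empty (non-targeting guide, empty pMICH vector), sgB2/Empty (the B2 guide against Asxl1, empty vector), sgNT/T618I (non-targeting guide, pMICH carrying CSF3R T618I) and sgB2/T618I (both changes). CSF3R T618I was overexpressed from the vector on top of the cells' own receptor, the B2 guide was meant to truncate Asxl1, and the labels name neither clones nor separate cultures, so a p-value here measures only the spread between these libraries.

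CSF3R is the receptor for granulocyte colony-stimulating factor, which drives neutrophil production through the kinase JAK2 and STAT transcription factors, and T618I makes it signal without ligand. Asxl1 is a chromatin protein that partners the deubiquitinase BAP1 and is linked to Polycomb silencing. As neutrophils mature they open distal enhancers and promoters bound by PU.1 and C/EBP factors, and genes for granule proteins, calprotectin, chemokines and adhesion molecules become active in sequence.

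At 18 of the 245 opened regions on chromosomes with promoter windows used here, the region overlapped a RefSeq window (build GRCm38.p6, which has the coordinates of mm10), running from 250 bases before to 50 bases after a gene's start. The windows below are shown because they are the strongest opened promoters or hold the letters counted most often; only the 250 bases before the start are printed, read along the gene's strand. Capitals mark exact matches, on either strand, to the letters of 1 of the motifs described after them. The windows of Stfa2, Gm39082, Fblim1, C3ar1, Mmp8 and Gm46657 are the 6 with the strongest peaks, and Ecm1 and Hfe were added after their matches were seen.

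Stfa2, chr16:36408364-36408613, minus strand: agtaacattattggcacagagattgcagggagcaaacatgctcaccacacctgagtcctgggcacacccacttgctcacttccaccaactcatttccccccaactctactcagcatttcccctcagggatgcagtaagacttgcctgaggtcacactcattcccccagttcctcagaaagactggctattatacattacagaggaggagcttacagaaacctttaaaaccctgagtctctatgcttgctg
Mmp8, chr9:7558179-7558428, plus strand: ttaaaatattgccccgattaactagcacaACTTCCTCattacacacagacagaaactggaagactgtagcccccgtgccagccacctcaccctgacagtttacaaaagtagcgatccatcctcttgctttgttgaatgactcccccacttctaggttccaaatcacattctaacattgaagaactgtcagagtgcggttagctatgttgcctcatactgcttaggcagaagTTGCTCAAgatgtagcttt
C3ar1, chr6:122856158-122856407, minus strand: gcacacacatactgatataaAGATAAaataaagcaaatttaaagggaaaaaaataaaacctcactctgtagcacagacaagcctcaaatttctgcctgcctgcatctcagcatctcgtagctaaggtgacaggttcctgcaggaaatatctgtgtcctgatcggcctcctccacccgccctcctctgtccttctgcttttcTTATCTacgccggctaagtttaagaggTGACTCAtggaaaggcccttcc
Fblim1, chr4:141606053-141606302, minus strand: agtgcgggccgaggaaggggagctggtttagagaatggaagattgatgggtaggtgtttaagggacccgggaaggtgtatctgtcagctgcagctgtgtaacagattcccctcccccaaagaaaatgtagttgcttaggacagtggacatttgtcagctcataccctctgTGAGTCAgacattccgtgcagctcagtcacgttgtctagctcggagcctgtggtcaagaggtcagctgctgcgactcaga
Gm39082, chr7:122924265-122924514, plus strand: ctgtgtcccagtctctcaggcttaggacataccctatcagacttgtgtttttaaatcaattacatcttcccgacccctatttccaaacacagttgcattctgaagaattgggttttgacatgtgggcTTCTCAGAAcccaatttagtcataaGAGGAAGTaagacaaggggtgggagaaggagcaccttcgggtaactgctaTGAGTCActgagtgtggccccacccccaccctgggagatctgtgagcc
Gm46657, chr19:56454991-56455240, minus strand: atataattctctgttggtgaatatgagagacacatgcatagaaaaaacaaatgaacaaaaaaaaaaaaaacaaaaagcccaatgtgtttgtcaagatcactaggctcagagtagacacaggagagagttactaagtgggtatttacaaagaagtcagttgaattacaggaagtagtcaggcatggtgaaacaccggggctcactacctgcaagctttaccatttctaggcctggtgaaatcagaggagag
Ecm1, chr3:95739570-95739819, minus strand: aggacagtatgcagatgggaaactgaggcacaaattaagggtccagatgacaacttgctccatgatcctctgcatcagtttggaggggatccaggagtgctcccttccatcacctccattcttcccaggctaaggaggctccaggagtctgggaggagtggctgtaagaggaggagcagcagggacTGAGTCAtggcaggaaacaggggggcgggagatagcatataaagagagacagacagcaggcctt
Hfe, chr13:23710855-23711104, minus strand: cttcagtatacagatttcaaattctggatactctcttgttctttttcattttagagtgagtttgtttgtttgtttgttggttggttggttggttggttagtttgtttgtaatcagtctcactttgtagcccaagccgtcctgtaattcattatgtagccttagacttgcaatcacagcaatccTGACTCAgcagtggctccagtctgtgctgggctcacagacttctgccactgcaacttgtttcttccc

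The AP-1 letters TGANTCA were in 5 of the 18 windows (27.8%), those of Gm39082, Fblim1, C3ar1, Ecm1 and Hfe. Of all 32619 promoter windows 7.85% held them, and of the 9642 windows in regions shared by all 12 libraries 3.86%. In C3ar1, the receptor gene for complement C3a, the match TGACTCA began 22 bases before the start, and in Fblim1, which encodes an adaptor of the actin skeleton, TGAGTCA began 80 bases before it. The match at Hfe, a regulator of iron uptake, lay outside the opened region, and the other 4 lay inside. The PU.1 letters GAGGAAGT were in 3 windows (16.7%, against 3.22% of all windows and 3.2% of those in shared regions): Gm39082, Gm38405 and Mmp8, the neutrophil collagenase gene. Mmp8 also held the C/EBP letters TTGCNNAA 19 bases before its start, as 1 of 2 windows with them (11.1%, against 10.9% and 7.71%). The STAT letters TTCNNNGAA were in 2 windows (11.1%, against 8.34% and 6.37%) and the GATA letters AGATAA in 1, that of C3ar1 (5.56%, against 11.2% and 4.73%). No window held the RUNX letters TGTGGTT (5.29% of all windows), or the NF-kB (1.47%) or CTCF (1.48%) motif, searched as exact consensus letters. No matches overlapped each other, and Stfa2 and Gm46657 had none. The region at Gm46657 (chr19:56454809-56455694), a long non-coding RNA gene, and 1581 bp from Plekhs1, covered 846, 708 and 754 bp with sgNT/T618I, against 705, 812 and 627 bp with sgB2/T618I. The opened promoter windows had a median GC content of 48.3%, against 53% in all windows and 62.7% in those of shared regions. At least 10 CpG dinucleotides were present in 3 of 18 opened windows (16.7%), in 43.8% of all windows and in 91.4% of those in shared regions. With 18 windows, 1 window more or fewer moves these shares by 5.56 percentage points, and base composition differs between the sets, so the motif shares are descriptions only.

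The opened regions were shorter and weaker, by their medians, than the regions that all 6 T618I libraries share. Their merged width had a median of 575 bp, between 231 and 1919 bp, and 248 of them held a single peak in each T618I library. The median width was 838 bp for regions found in all 6 T618I libraries. It was only 514 bp for regions with a peak in 6 libraries of any other mixture, and 464 bp for all merged regions. In a single library the peaks of a region covered between 173 and 1821 bp, with a median of 370.5 bp. Strength was read as the percentile of a region's strongest peak, by the deposited −log10 p, among all peaks of the same library. The median opened region sat at percentile 37.3, 32.6 and 41.3 in sgNT/T618I and at 33.2, 47.3 and 33.8 in sgB2/T618I. The other regions shared by all 6 T618I libraries had medians between 63.6 and 73.7. Regions with a peak in 6 libraries of any other mixture were weaker where they had a peak, with medians of 25.9, 22.5 and 27.4 in the 3 sgNT/T618I libraries and of 22.5, 33.2 and 21.8 in the 3 sgB2/T618I libraries. The opened regions thus lay between these sets in each T618I library. Averaged over the T618I libraries with a peak, the median percentile of the opened regions was 38.1. It was 39.5 for regions with a peak in 6 T618I and 1 Empty library, and 29.5 for those in 5 T618I and no Empty library. This strength is therefore not particular to the opened regions. The deposited fold, the authors' ratio of pileup over background, lay between 2.23 and 9.44 at opened regions, with a median of 4.14.

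**Figure D1:**
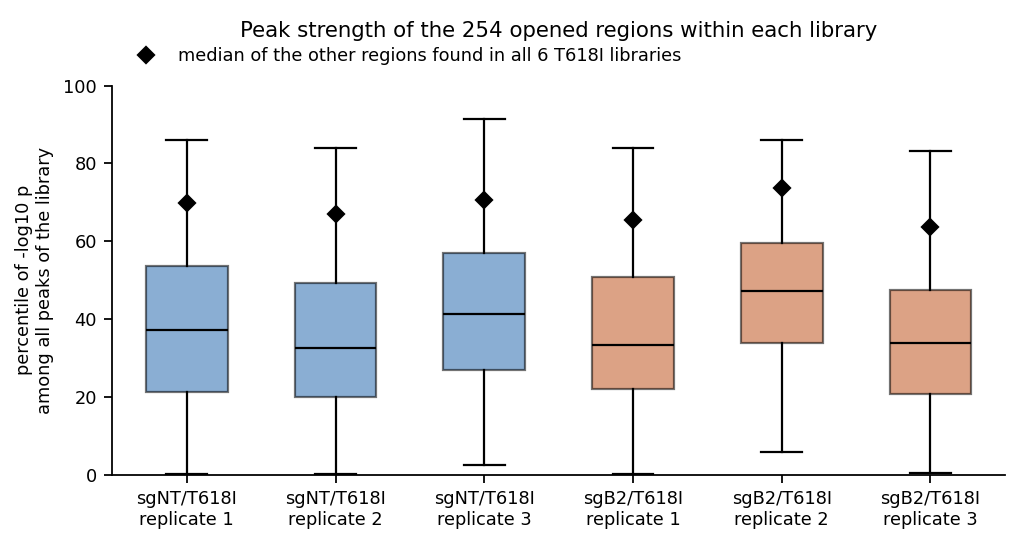
Percentile of −log10 p (vertical axis) of the 254 opened regions among all peaks of each T618I library (horizontal axis); boxes span the quartiles with the median as a line, whiskers reach the lowest and highest region, and diamonds mark the median of the other regions found in all 6 T618I libraries. In each library the diamond, between 63.6 and 73.7, lies above the upper quartile of the opened regions.

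Peak strength decided much of the membership. With only peaks at −log10 q of at least 2, 249 regions met the rule, 180 of them among the 254. At −log10 q of at least 5, 137 met it and 38 were among the 254. The Empty lists held 18484 to 29699 peaks and the T618I lists 23695 to 32975, and the sequencing depth is unknown. With every list cut to its 18484 strongest peaks, 191 regions met the rule, 74 of them among the 254, and the regions with a peak in all 6 Empty and no T618I library went from 32 (0.0565% of all regions) to 118. Under all 3 of these peak settings 37 of the 254 regions were kept, among them those at Stfa2, Ostf1, Dock2, Csta2, Fcor and Il21r. Leaving out any 1 library gave between 260 regions (without sgNT/Empty replicate 1, the shortest list) and 373 (without sgNT/Empty replicate 3, the longest Empty list). Leaving out a library only relaxes the rule, so this count could not fall below 254 and all 254 regions were kept by construction.

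With 1 guide at a time, 1204 regions in sgNT cells had a peak in all 3 T618I and none of the 3 Empty libraries. In sgB2 cells 1202 did. The 254 regions gained in both are 21.1% of either list. A region outside this overlap need not lack a peak under the other guide. Of those gained in sgNT cells, 209 had a peak in 2 sgB2/T618I and no sgB2/Empty libraries, and 165 in no sgB2 library. For those gained in sgB2 cells the same counts in sgNT libraries were 126 and 146. Among the 1901 regions with a peak in exactly 6 of the 12 libraries, 254 (13.4%) had all 6 peaks in T618I libraries and 32 (1.68%) had all 6 in Empty libraries. Many regions fell just short of the rule. A peak in all 6 T618I libraries and 1 Empty library was found at 256 regions, 119 of them through sgNT/Empty replicate 3, and a peak in 5 T618I libraries and no Empty library at 335, of which 104 lacked it in sgB2/T618I replicate 3 and 98 in sgB2/T618I replicate 1. The weakest opened regions, near Itgb4, Shisa4 and Ada, had mean percentiles of 9.19, 8.40 and 7.26. The strongest regions just outside were near Rnh1, E2f2 and Iqsec1 (mean percentiles 75.5, 75.2 and 73.2), each with a peak in 1 Empty library. Those near Slc22a15, Slc16a10 and Cd33 (66.7, 65.5 and 65.5) lacked a peak in 1 T618I library.

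Most opened regions lay away from promoters. Of the 254, 26 (10.2%) were within 1 kb of either end of a protein-coding gene, against 57.8% of the 13356 regions shared by all 12 libraries and 20.2% of all merged regions. Regions found in 6 libraries in any other mixture, which are of like rarity, had 10.4%, and regions closed with T618I 9.38%. Within genes but over 1 kb from an end lay 121 (47.6%), and 34 (13.4%) lay over 50 kb from any gene. Only 7.35% overlapped a promoter window, against 54.1% of the regions in all 12 libraries and 7.28% of the mixed regions. The low share at promoters was thus no lower than in other regions found in 6 libraries.

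**Figure D2:**
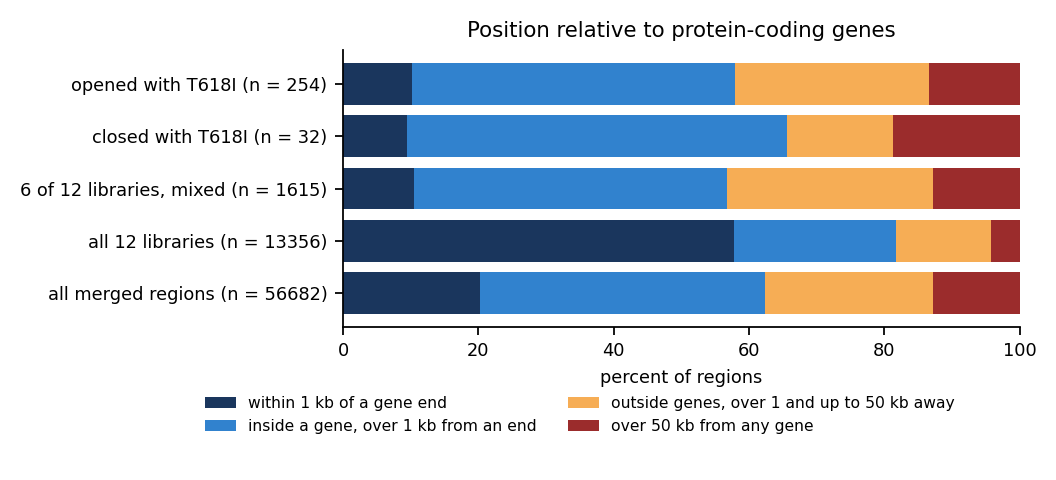
Share of regions (horizontal axis, percent) in 4 classes of position relative to protein-coding genes, for the opened regions, the closed regions, other regions found in 6 of 12 libraries, regions in all 12 libraries and all merged regions. The opened regions have 10.2% within 1 kb of a gene end, close to the 10.4% of the mixed regions and far from the 57.8% of regions in all 12 libraries.

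The regions were spread widely. They made 238 loci when regions up to 100 kb apart were joined, of which 223 held 1 region, 14 held 2 and 1 held 3, and 241 different genes were nearest to them. Per 100 regions found in all 6 T618I libraries, chromosome 12 had 2.42 opened regions, chromosome 19 had 2.3 and chromosome X had 0.277, from a single region near the Toll-like receptor gene Tlr13. Regions shared by all 12 libraries and within 10 kb of an opened region were 97 in number. The log2 difference in covered length, T618I minus Empty, was positive at 57.7% of them, with a median of 0.06. For all 13356 it was positive at 41.8%, with a median of -0.04. Raw covered length over all 13356 had library medians from 596 to 712 bp with T618I and from 505 to 697 bp with Empty. The raw medians were thus mostly longer with T618I, so the sign of the difference depends on scaling between libraries. Only the contrast between the 97 regions and all 13356 is read here.

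Genes of mature neutrophils had the largest share of members with an opened region nearby. Within 50 kb of the gene, 6 of 24 listed genes had one (25%): Csf3r, Ccl6, Mmp8, Trem1, Stfa1 and Selplg. The list named secondary and tertiary granule had 4 of 20 genes (20%): S100a8, S100a9, Mcemp1 and Padi4. These encode a cytosolic protein (S100a8 and S100a9), a membrane protein and a histone-modifying enzyme, so the count is not one of stored granule proteins. Mmp8, whose product is stored in secondary granules, was counted in the mature neutrophil list. Of all 21627 protein-coding genes 507 had one (2.34%). JAK-STAT target genes had 3 of 20 (15%), as had inflammatory NF-kB and AP-1 genes and cytokine receptor genes, and monocyte, macrophage and dendritic genes had 2 of 18 (11.1%). No gene had one among 11 of primary granules, 20 myeloid transcription factors, 14 lymphoid, 15 stem and progenitor, 14 erythroid and megakaryocyte, 12 mast cell, basophil and eosinophil, 14 interferon response, 19 Polycomb and ASXL-BAP1 or 20 housekeeping genes. At a background of 2.34%, a list of 20 genes holds fewer than 1 such gene on average, so a count of 0 says little about a list. The lists were chosen with earlier results of these data known, and neighbouring genes share regions, so the counts describe the regions and support no list. Within 10 kb the mature neutrophil list kept 4 of 24 genes and the secondary and tertiary granule list 3 of 20, while the JAK-STAT and cytokine receptor lists had 1 of 20 each and the NF-kB and AP-1 list 0 of 20. In all, 11 listed genes had an opened region within 10 kb (3.91% of 281), against 0.976% of all genes.

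**Figure D3:**
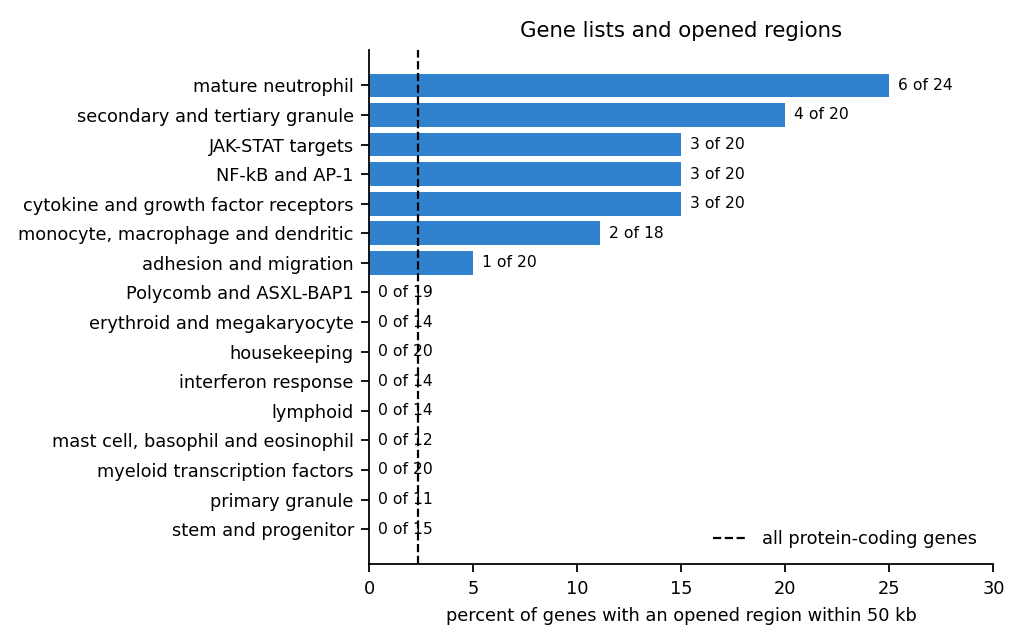
Share of the genes of each list (horizontal axis, percent) with an opened region in the gene or within 50 kb of it, with the number of genes beside each bar; the dashed line is the share of all protein-coding genes, 2.34%. The mature neutrophil list (25%) and the list named secondary and tertiary granule (20%) have the longest bars, and 9 lists have none.

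Among granulocyte genes, the strongest opened region of all lay across the start of Stfa2 (chr16:36408021-36408647). Stfa2 encodes a stefin, a cytosolic inhibitor of cysteine proteases abundant in mouse neutrophils. Its peaks covered 608, 479 and 481 bp in sgNT/T618I replicates 1 to 3 and 351, 341 and 296 bp in sgB2/T618I replicates 1 to 3, with a mean percentile of 80.3. All 3 sgB2 values were below all 3 sgNT values, a pattern of raw covered length that 14% of all regions found in the 6 T618I libraries shared. The start itself, whose sequence is given above, was inside the region. A second stefin region, inside Csta2 (chr16:36252473-36253325), covered 463, 314 and 285 bp with sgNT and 261, 853 and 316 bp with sgB2, so the guides overlapped. Another region, 929 bp past Stfa1 (chr16:36286300-36287584), covered 890, 831 and 817 bp and 724, 454 and 655 bp. The Stfa1 region was weak, with a mean percentile of 14.5, and was not kept under stricter or equal-length peaks, whereas the other two were kept under all 3 peak settings. The regions of Stfa1, Selplg, S100a8 and Csf3r named here were chosen after their values were seen.

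The only locus with 3 opened regions lay between S100a8 and S100a9 and over the 3′ end of S100a9 (chr3:90671459-90692963). These neighbouring genes encode the subunits of calprotectin, the main cytosolic protein of neutrophils. The region over the 3′ end of S100a9 (chr3:90691566-90692963) covered 1196, 1352 and 1322 bp with sgNT and 1114, 1087 and 1100 bp with sgB2. Each sgB2 library was below each sgNT library there, as at 14% of all regions, and after removing library medians the log2 difference was -0.09 ± 0.11 (SE, limma adjusted p = 0.818). The region between the genes (chr3:90682258-90682888) covered 535, 581 and 570 bp and 500, 545 and 492 bp. The region 1425 bp past S100a8 (chr3:90671459-90673377) covered 1650, 1719 and 1821 bp with sgNT but 653, 1735 and 335 bp with sgB2, so it was long in 1 of 3 sgB2 libraries. The promoter windows of these genes were not newly open: S100a8 had a peak there in all 12 libraries and S100a9 in 11. None of the 3 regions was kept at −log10 q of at least 5 or in equal-length lists.

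Around Csf3r, the gene of the receptor itself, both opened regions lay before the start, while the promoter had a peak in all 12 libraries. The farther region (chr4:125990289-125991181), 32260 bp from the gene, covered 650, 706 and 715 bp with sgNT and 674, 745 and 871 bp with sgB2. The nearer one (chr4:126003993-126005124), 18317 bp away, covered 779, 280 and 1049 bp and 1056, 1102 and 331 bp, with 1 short library under either guide. Both were weak (mean percentiles 14.8 and 23.6) and were not kept at −log10 q of at least 2 or in equal-length lists. Both lie outside the annotated span of the gene.

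Other genes of neutrophils and phagocytes had opened regions across their starts or inside them. Mmp8, the neutrophil collagenase stored in secondary granules, had a region across its start (chr9:7558133-7558671) of 368, 350 and 539 bp with sgNT and 320, 360 and 531 bp with sgB2, with full overlap between the guides. Ccl6, a chemokine of myeloid cells, had one (chr11:83592821-83593776) of 610, 837 and 818 bp and 852, 898 and 786 bp. In the same chemokine cluster Wfdc17, a secreted protein of activated phagocytes, had one across its start (chr11:83703621-83704307) of 652, 512 and 317 bp and 370, 567 and 243 bp; it lies within 50 kb of Ccl4, a chemokine gene of the inflammatory list. C3ar1 had one (chr6:122855969-122856464) of 228, 469 and 213 bp and 183, 322 and 266 bp. Selplg, the gene of the selectin ligand PSGL-1, had a region inside the gene (chr5:113828181-113828922) of 734, 468 and 609 bp and 413, 468 and 374 bp. The regions at Ccl6, Wfdc17 and Selplg were not kept at −log10 q of at least 2, those at Mmp8 and C3ar1 were, and of the 5 only C3ar1 was kept in equal-length lists.

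For Trem1, Mcemp1 and Padi4 the opened region was in or nearer to another gene, so its target is unknown. The region within 50 kb of Trem1, an activating receptor of neutrophils, is nearest to A530064D06Rik (chr17:48185223-48185582) and covered 360, 303 and 229 bp with sgNT and 182, 317 and 229 bp with sgB2. That near Mcemp1, a membrane protein of mast cells and neutrophils, lies 407 bp from Fcor (chr8:3670365-3670778) and covered 344, 209 and 237 bp and 275, 266 and 202 bp. It was kept under all 3 peak settings. That near Padi4, the histone citrullinating enzyme of neutrophils, lies inside the related gene Padi1 (chr4:140816028-140816970) and covered 615, 763 and 714 bp and 643, 856 and 616 bp.

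Receptor and signalling genes formed the next set. A region between Il4ra and Il21r (chr7:125593786-125594306), the genes of 2 cytokine receptor chains, covered 359, 371 and 231 bp with sgNT and 369, 362 and 277 bp with sgB2 and was kept under all 3 peak settings. It is nearest to Il21r, 8946 bp away. The region 11188 bp from Il1rl1 (chr1:40392661-40393676), which encodes the interleukin 33 receptor, covered 781, 854 and 781 bp and 978, 818 and 811 bp. Ifngr1, a chain of the interferon gamma receptor, had a region 39450 bp away (chr10:19551561-19552499) whose length was uneven, at 271, 779 and 334 bp and 212, 431 and 236 bp. Downstream of the receptors, the region 11967 bp from Jak2 (chr19:29239529-29239836), the kinase that CSF3R uses, covered 222, 209 and 280 bp and 242, 257 and 223 bp. The region near Socs1, a feedback inhibitor of JAK kinases, covered 303, 220 and 410 bp and 188, 308 and 373 bp (chr16:10774746-10775157), with a low mean percentile of 18.0. Of the inflammatory genes, Fosl2, an AP-1 subunit, had a region 34270 bp away (chr5:32192110-32192504) of 215, 250 and 395 bp and 218, 296 and 306 bp. That near the cytokine gene Tnf lies inside Ddx39b (chr17:35251391-35251780) and covered 370, 327 and 343 bp and 199, 319 and 309 bp, each raw sgB2 value below each sgNT value. The region inside Iqgap2 and within 10 kb of F2rl2, a protease-activated receptor gene, was among the most even of all (chr13:95712129-95713218): 1018, 1062 and 974 bp with sgNT and 1050, 1032 and 969 bp with sgB2. Its mean percentile was 28.0, so a long region need not be a strong one.

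**Figure D4:**
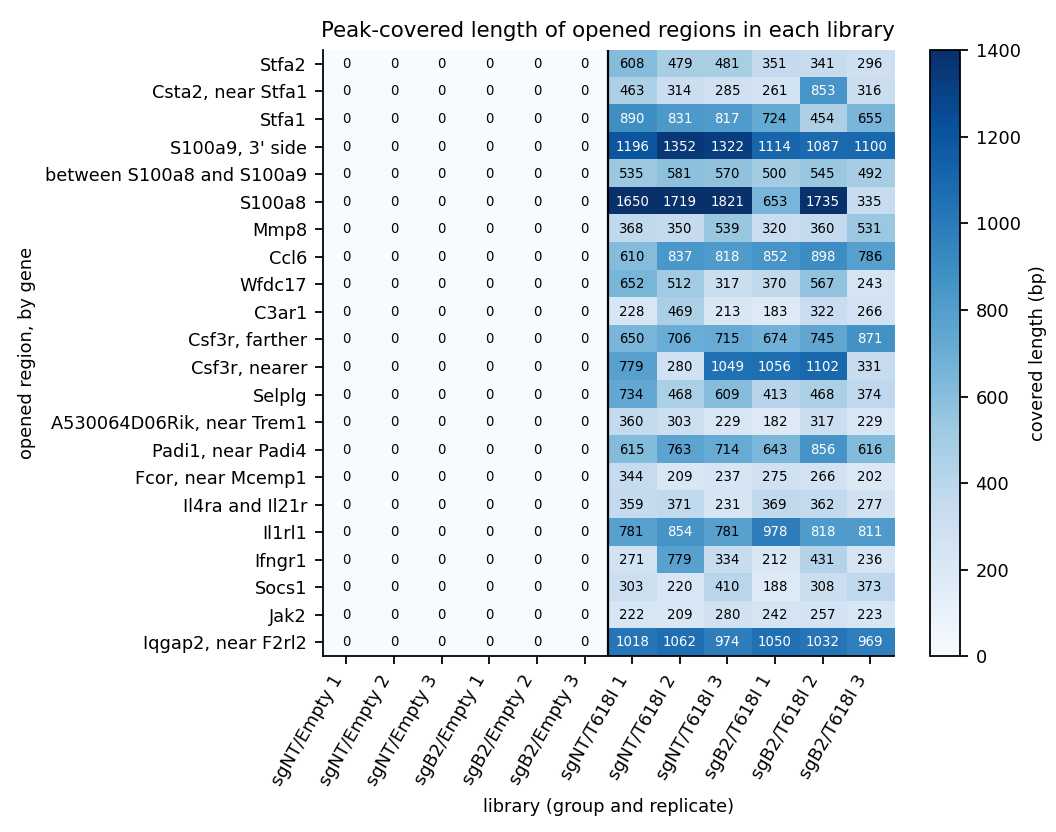
Bases covered by peaks (bp, colour and number) in each of 22 opened regions named in the text (rows) in each of the 12 libraries (columns). The 6 Empty columns are 0 by the rule; S100a8, the nearer Csf3r region, Ifngr1 and Csta2 vary by over 3-fold between T618I libraries, and the Iqgap2 region near F2rl2 is even.

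The other strong opened regions were mostly inside genes without a listed role in neutrophils. After Stfa2, the highest mean percentiles belonged to regions inside Ostf1, an SH3 domain protein (79.8), Hcfc2 (78.0), Specc1l, a cytoskeletal protein (77.3), near Atp11a, a lipid flippase (73.6), and inside Vrk3, a kinase (73.1), Dock2, which activates Rac in leukocyte migration (71.5), Sirt2, a deacetylase (67.5) and Ubr4, a ubiquitin ligase (67.0). The Ostf1 region (chr19:18602981-18603430) covered 401, 391 and 411 bp with sgNT and 264, 320 and 330 bp with sgB2, without overlap between the guides. The Dock2 region (chr11:34525516-34525864) covered 344, 319 and 287 bp and 268, 305 and 317 bp, with overlap. The region nearest to Cdc73 (66.6) was 708780 bp from that gene, the one nearest to Eea1 (65.6) 228507 bp and the one nearest to H3f3a (65.0) 16236 bp, so these names place the regions and no more. All 12 regions from Stfa2 to H3f3a were kept under all 3 peak settings. They were chosen by −log10 p, and the settings filter on −log10 q or on rank by −log10 p, so this was nearly fixed by the choice.

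The labelled cell type was read from promoters in all 12 libraries. The progenitor gene Kit, the receptor of stem cell factor, and Mpo, the myeloperoxidase gene of early granulocytes, had promoter peaks in 12 of 12 libraries, as had Asxl1. Cd34 had one in all 6 T618I and 3 Empty libraries. Hoxb8 had none in its promoter window in any library. An ATAC-seq peak list cannot show a short edit, so the truncation of Asxl1 was not checked, and a larger share of cells with an open site cannot be told apart from a wider opening in each cell.

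The rule did not compare the guides within T618I cells, so covered length was tested between them. It did require a peak in all 6 T618I libraries. Regions that gained or lost their peak with the guide were thus left out beforehand, and the test concerns length alone. Covered length was compared between the 3 sgB2/T618I and the 3 sgNT/T618I libraries with limma over all 17255 regions found in all 6 T618I libraries, as log2 covered length after removing each library's median, with Benjamini-Hochberg adjustment over all of them. None of the 254 opened regions passed, while 8 regions (0.0464%) were longer and 40 (0.232%) shorter with sgB2 among all those tested. At an unadjusted limma p under 0.05 there were 33 of the 254 opened regions, 26 longer and 7 shorter with sgB2, against 1406 of all 17255 (8.15%). The median log2 difference was 0.07 in opened regions and 0.04 over all regions, and without removing library medians -0.06 and -0.10, so the direction of the median followed the scaling. So did the split at an unadjusted p under 0.05, which without removing library medians was 10 longer and 16 shorter, and in equal-length lists 16 longer and 12 shorter. In raw covered length the guides did not overlap at 41 opened regions. Every sgB2 library was longer at 15 of the 254, against 379 of all 17255 regions (2.2%). Every sgNT library was longer at 26 of the 254, against 2419 of all 17255 (14%). The first share was above that over all regions and the second below it, and neither was tested. No scaling was applied to these counts, and the median covered length over all 17255 regions was 653, 645 and 614 bp in sgNT/T618I and 561, 645 and 540 bp in sgB2/T618I.

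The region with the lowest p lay inside Aopep, an aminopeptidase gene (chr13:63253070-63254121). It covered 212, 233 and 204 bp with sgNT and 407, 536 and 900 bp with sgB2, means of 216 ± 15.0 and 614 ± 256 bp (SD, n = 3). The groups did not overlap, and the log2 difference was 1.56 ± 0.32 (SE), with a limma adjusted p of 0.237. Inside Shtn1 (chr19:58978463-58979092), a regulator of neuron outgrowth, the region covered 236, 234 and 324 bp and 397, 630 and 443 bp (log2 difference 1.01 ± 0.21). Inside Xylt1 (chr7:117587044-117587833), which starts glycosaminoglycan chains, it covered 324, 263 and 312 bp and 404, 776 and 722 bp (1.17 ± 0.26). Near the kinase gene Dyrk1b and near Auh, log2 differences were 0.81 ± 0.17 and 0.62 ± 0.14, again without overlap. In the other direction, the region inside Sptb, the beta spectrin gene (chr12:76593861-76594447), covered 581, 451 and 396 bp with sgNT and 205, 234 and 279 bp with sgB2 (-0.85 ± 0.21). The log2 difference was -0.53 ± 0.16 at Stfa2, -0.50 ± 0.18 near Ropn1l and -0.34 ± 0.13 inside the proton pump gene Atp6v0a1. A further region of this direction, inside Cables1, had -0.84 in the fit. The adjusted limma p of these regions was between 0.237 and 0.581, so none of these differences passed. Data of the same spread were simulated, with changes planted in regions drawn from all 17255. The test found 40 of 100 regions changed by a log2 value of 1 and 0 of 100 changed by 0.5. The test thus missed every planted difference of that smaller size under this setting. A region that did not pass can still differ by that much. The rate for the opened regions alone was not simulated.

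**Figure D5:**
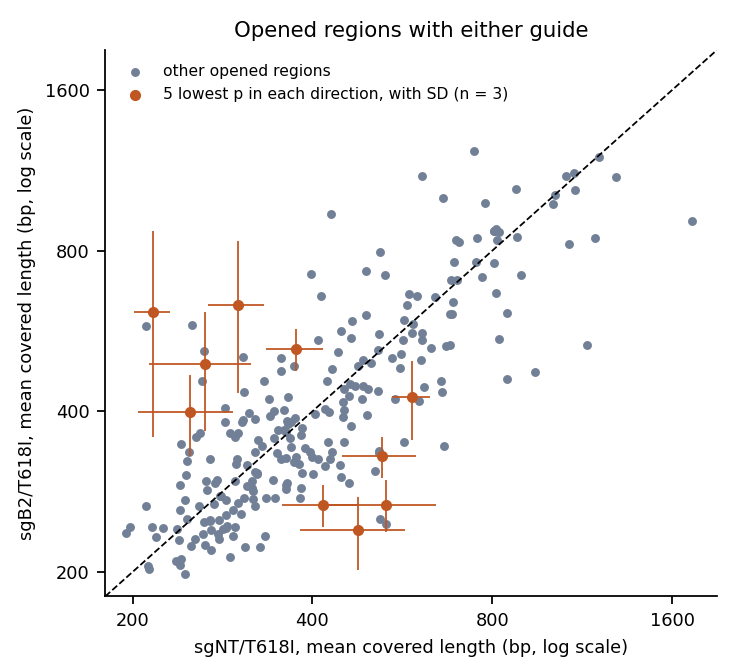
Mean covered length (bp, log scales) of the 254 opened regions with sgNT/T618I (horizontal) and sgB2/T618I (vertical), each a mean of 3 libraries; orange points with SD bars are the 5 regions of lowest p in each direction, and the dashed line marks equal length. Points lie on both sides of the line, and the Aopep region, at 216 and 614 bp, lies farthest above it among the orange points.

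Read over whole gene neighbourhoods, peak coverage differed between the guides at 2 of the 490 tested genes with an opened region within 50 kb. Of all 15282 genes tested, 25 (0.164%) were higher and 30 (0.196%) lower with sgB2 in T618I cells. The share among the 490 was thus close to that over all genes. At an unadjusted limma p under 0.05 there were 56 of the 490, against 10.1% of all genes tested. Coverage was the length under peaks in the gene and 50 kb on each side, scaled to equal total coverage. The limma fit used all 12 libraries. Akap6, which encodes an anchoring protein for protein kinase A, rose. Its coverage was 0.239, 0.264 and 0.326 kb in sgNT/T618I and 2.83, 3.58 and 2.42 kb in sgB2/T618I (log2 difference 2.14 ± 0.30, SE, on the scale with 500 bp added; limma adjusted p = 0.00438). The Empty groups had 0, 0.677 and 0.172 kb with sgNT and 0.503, 1.55 and 1.71 kb with sgB2. The opened region inside Akap6 (chr12:52782943-52783374) covered 288, 298 and 377 bp with sgNT and 376, 405 and 380 bp with sgB2 and did not pass by itself (log2 difference 0.41 ± 0.17, limma adjusted p = 0.611), so most of the added coverage lay elsewhere in that window. Vps13d, a lipid transfer protein gene, fell. Its coverage was 10.4, 11 and 9.22 kb in sgNT/T618I and 5.39, 6.93 and 6.17 kb in sgB2/T618I (log2 difference -0.69 ± 0.12, limma adjusted p = 0.0157). The Empty groups had 6.86, 6.35 and 7.71 kb and 6.12, 4.95 and 5.59 kb. Its opened region (chr4:145103330-145103984) covered 582, 565 and 501 bp and 283, 628 and 352 bp and did not pass (-0.33 ± 0.25, limma adjusted p = 0.737). Without scaling neither gene passed (limma adjusted p = 0.103 for Akap6 and 0.479 for Vps13d). Vps13d was lost without sgNT/T618I replicate 1 or 2 or sgB2/T618I replicate 1 or 3 (limma adjusted p from 0.054 to 0.0976) and with a window of 10 kb (0.12), and Akap6 in equal-length lists (0.0693).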

How the data were processed

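ATAC-seq peaks were analysed in 12 mouse HoxB8 libraries, 3 per group, with groups taken per the labels. The files were 1 broad peak list per library, deposited by the authors on mm10. BWA 0.7.17, SAMtools 1.9, bedtools 2.30, MACS2 2.2.7.1 and deepTools 3.5 are named per the submitters' processing notes, without settings. The deposited score was not used. The deposited fold, the authors' ratio of pileup over background, was used to describe peaks. Within each list, peaks were ranked by the authors' −log10 p and filtered on −log10 q; both depend on depth. No read counts were analysed here, so depth is unknown.

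Peaks were merged at 1 bp overlap. The covered length is the number of bases under peaks. Distances used 21627 protein-coding genes of GRCm38.p6, and promoter sequences the RefSeq windows of that build; chromosome 18 windows were not used. Motifs were searched only in those windows, because no genome was used here. Fits used limma 3.58.1 (trend, Benjamini-Hochberg threshold 0.05) in R 4.3.3; genes needed a mean coverage of at least 500 bp, and 500 bp were added before log2. Other steps used python 3.11.15, pandas 2.3.3, numpy 2.4.6 and matplotlib 3.10.9. On simulated data, the gene fit recovered 78 of 100 genes changed by a log2 value of 1 and 19 of 100 changed by 0.5, with 7 other calls; the region fit made 4 other calls.

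The regions, the 16 gene lists (281 of 285 genes in the reference) and the tests were chosen with earlier results of these data known. Regions were named by strength (12), list membership (at most 4 per list), guide effect (5 per direction), promoter overlap (6) and distance to the rule's border (3 of each kind). Alternatives changed the merge, the peak threshold, the list length, the rule, the scaling, the window, the added length, the filter, the limma trend, the replicate block and the libraries included.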

Additional observations from a re-analysis of the deposited data

How the results depend on the processing

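The count of 254 opened regions became 137 at −log10 q of at least 5. It was 510 with a peak allowed in 1 Empty library, 589 with 5 T618I libraries required, and 260 to 373 with 1 library left out. These last settings only relax the rule, so their counts could not fall below 254. It was 249 at −log10 q of at least 2, 191 in equal-length lists, 254 when peaks up to 200 bp apart were merged and 253 when merging needed 100 bp of overlap. Near gene ends there were 26 opened regions, 11 at −log10 q of at least 5, 16 in equal-length lists and 57 within 5 kb. Covered length differed between the guides at 48 regions in T618I cells, 24 at −log10 q of at least 5 and 11 to 86 with 1 library left out. That count was 16, 11 and 12 without sgNT/T618I replicates 1, 2 and 3 and 86 without sgB2/T618I replicate 2. Of the opened regions 0 to 1 passed with 1 library left out, and 0 in the other settings. Coverage differed between the guides around 55 genes, 216 in equal-length lists, 5 without scaling and 26 with a window of 10 kb. With 1 library left out this count was 10 to 116. It was 116 without sgNT/Empty replicate 1, and 10, 21 and 24 without sgNT/T618I replicates 1, 2 and 3. Without sgB2/T618I replicates 1 and 3 it was 23 and 32. Of genes near opened regions 2 were called, 6 in equal-length lists, 0 without a filter, 0 without scaling, 1 with a window of 10 kb and 1 to 4 with 1 library left out. Listed genes with an opened region went from 22 to 11 with a window of 10 kb. In the setting without the filter on low coverage Akap6 and Vps13d did not pass. With the replicate block the region count was 0 and the gene count 56, with 2 near opened regions. The replicate numbers did not pair the libraries: deviations of same-numbered libraries correlated between -0.0818 and 0.148, those of different numbers between -0.177 and 0.126, and 0 libraries correlated best with their own number. The cause of these shifts was not tested. Peak lists without read counts limit every comparison to where peaks were listed.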

Other observations

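Several opened regions lay at genes of leukocyte signalling that no list held. These were chosen after their values were seen, and none of them passed the guide test on covered length described above. A region 1356 bp from Syk, a kinase of immune receptors (chr13:52580936-52581254), covered 254, 308 and 274 bp in sgNT/T618I and 223, 228 and 242 bp in sgB2/T618I, the sgB2 libraries all shorter. Inside Rac1, a small GTPase of cell movement (chr5:143512221-143512633), the values were 401, 343 and 395 bp and 338, 348 and 272 bp. Inside Actn1, an actin crosslinker (chr12:80235367-80235662), they were 269, 247 and 296 bp and 193, 262 and 206 bp, and this region was kept under all 3 peak settings. The only region on chromosome X, 6589 bp from Tlr13, a receptor for bacterial RNA, varied between libraries, with 1592, 433 and 1428 bp and 253, 860 and 482 bp. Vsir, an inhibitory receptor of leukocytes, held 2 opened regions inside the gene.

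Other regions were nearest to transcription factor genes, often at long distance, so that the gene they act on is unknown. The region 215513 bp from Id2, an inhibitor of helix-loop-helix factors (chr12:25311605-25312179), covered 240, 373 and 575 bp and 271, 323 and 413 bp and was kept under all 3 peak settings. The region 147256 bp from Bcl6, a repressor (chr16:24136122-24137547), covered 1090, 786 and 1426 bp and 1359, 966 and 799 bp. Inside Cdk6, a cell cycle kinase of blood progenitors (chr5:3494452-3494743), the region was short and even, at 255, 230 and 248 bp with sgNT and 202, 194 and 198 bp with sgB2, without overlap between the guides (limma adjusted p = 0.754).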
